A study of Capra hircus with 2 samples.

Results

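The miRNAs miR-19a, miR-19b, miR-92a, miR-25 and miR-363 were chosen for their 2 seeds, that of miR-19 and that of miR-92/25, which are encoded side by side in the miR-17-92 cluster. The related miR-106b-25 cluster holds miR-25 and no miR-19. They were measured in small RNA from mammary gland of dairy goats (Capra hircus). The involution library stands for day 5 after forced weaning at late lactation, which was day 218 after parturition. The lactation library stands for day 10 after parturition. Each is 1 library made from an equal mixture of RNA of 5 goats, selected for 18 to 30 nt, so there was no replicate and no test between the stages. The labels used here name no strain, parity or age of the goats. No library of late lactation before weaning was analysed, so weaning and time since parturition cannot be told apart. In whole tissue, fewer cells of a type and less RNA per cell cannot be told apart either.

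The miRNAs were found by sequence in the lists of clean tags, where each distinct read sequence has its count. Tags of 18 nt or more were assigned to a miRNA if they started at its first base, or 1 or 2 bases later, carried its first 18 bases from there on, and ended no more than 3 bases beyond its most abundant form. Levels are tags per 1000000 clean tags of the library (CPM). All 5 miRNAs were detected in both libraries. They are 5 of 772 groups of tags of miRNA length ("tag families", each sharing its first 18 bases) that reached 10 CPM in a library. The families were not matched to known miRNAs and can include fragments of other RNAs, so shares and ranks over them are not values over miRNAs alone. Of the 5, miR-363 reached that level in involution alone.

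A miRNA recognises mRNAs mainly through its seed, bases 2 to 8 from its 5′ end, so miRNAs with 1 seed share most of their targets. The miR-17-92 cluster is a single primary transcript induced by MYC, and its paralogs are the miR-106b-25 and miR-106a-363 clusters. In mouse B-cell lymphoma miR-19 is the member chiefly needed for tumour growth, whereas miR-92a restrains vessel growth in mice. In mammals mature miR-19b and miR-92a are each made from a copy in the miR-17-92 cluster and a copy in the miR-106a-363 cluster, which tags of the mature form do not separate.

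The most abundant tag of each miRNA is shown because these letters decide which tags were counted for it. Capitals mark the seed, and T stands for U as in the deposited files.
miR-19a: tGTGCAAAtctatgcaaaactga
miR-19b: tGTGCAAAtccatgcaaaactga
miR-92a: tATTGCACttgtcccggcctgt
miR-25: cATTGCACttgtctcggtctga
miR-363: aATTGCACggtatccatctgcg

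The seed GTGCAAA was shared by miR-19a and miR-19b, which matched at 22 of 23 bases and differed by T11C, written with the base of miR-19a first and counted from the 5′ end. The seed ATTGCAC was shared by the other 3. Between miR-92a and miR-25, 18 of 22 bases were identical, with T1C, C14T, C18T and T22A from miR-92a to miR-25. miR-363 left both after the seed and matched miR-92a at 10 of 22 bases and miR-25 at 8 of 22. The most abundant tags of miR-19a and miR-19b had 34.8% and 39.1% GC, against 54.5% for miR-92a and 50% for both miR-25 and miR-363.

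The libraries held 7385833 clean tags in involution and 18031615 in lactation, of 18 to 44 nt, with 88.9% and 91.2% of them at 20 to 24 nt. A single tag was worth 0.135 CPM in involution and 0.0555 in lactation. Epithelial and milk miRNAs, recognised by their seeds, were abundant in both, with 53932 and 81430.5 CPM in sum over 5 seed families, so mammary epithelium was represented in each library. Reads removed by the authors as 5′ adaptor contaminants made up 14.0% of high-quality reads in involution and 0.0505% in lactation. Reads without an insert made up 7.73% and 0.945%, and reads under 18 nt 4.14% and 0.920%. Intervals given here are 95% intervals that cover counting error only, since PCR copies were not marked and animals were pooled.

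Both miR-19 miRNAs were far higher in the involution library. The main form, miR-19b, stood at 468 CPM in involution (453 to 484) and 27.1 in lactation (24.7 to 29.6), a ratio of 17.3 (15.7 to 19.1). The level of miR-19a was 129.6 CPM in involution (121 to 138) and 10.3 in lactation (8.89 to 11.9), a ratio of 12.6 (10.7 to 14.8). The interval of neither miRNA in involution overlapped its interval in lactation, as was the case for all 5 miRNAs and, with the involution interval above, for 61.8% of the 772 families. Summed over the seed, miR-19 stood at 598 CPM in involution and 37.4 in lactation, a ratio of 16.0 (14.7 to 17.4). These values rest on 4415 tags in involution and 674 in lactation.

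The miR-92/25 side was abundant in both libraries and differed far less. For miR-92a, which in mouse endothelium represses the integrin subunit Itga5, the level was 957 CPM in involution (935 to 980.0) and 643 in lactation (632 to 655). Its ratio was 1.49 (1.44 to 1.53), with a direction that turned, to 0.98 and 0.94, under median-of-ratios and TMM scaling. The level of miR-25, made from the miR-106b-25 cluster, was 958 CPM in involution (936 to 980.4) and 493 in lactation (483 to 503). Its ratio of 1.94 (1.88 to 2.01) lay just short of the 2-fold limit used for a call. The rare miR-363 had 33.2 CPM in involution (29.1 to 37.6) and 4.44 in lactation (3.52 to 5.52), a ratio of 7.48 (5.79 to 9.75) that rests on 245 and 80 tags. The sum over the 3 was 1948 CPM in involution and 1141 in lactation, a ratio of 1.71 (1.67 to 1.74).

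**Figure D1:**
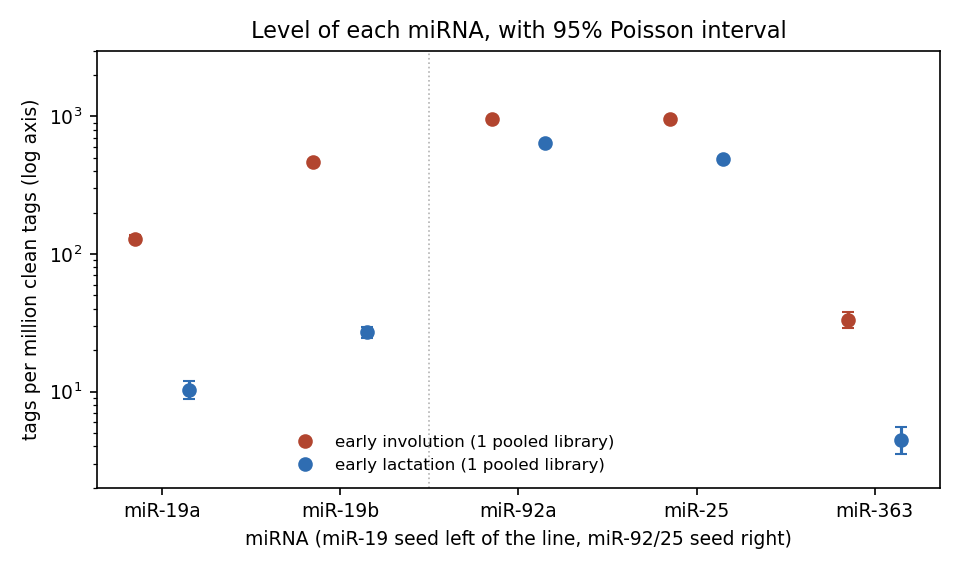
Level of each miRNA in the early involution library (left point of each pair) and the early lactation library (right point), as tags per 1000000 clean tags (CPM) on a log axis, with 95% Poisson intervals. The miR-19a and miR-19b points lie more than 10-fold apart between libraries, whereas miR-92a and miR-25 lie less than 2-fold apart.

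Called as higher at a ratio of at least 2, with its interval above 1 and at least 10 CPM in a library, were 3 of the 5: miR-19a, miR-19b and miR-363. Of all 772 tag families 314 were called higher by this rule, or 40.7%, and 28 were called lower, or 3.63%. A call was thus common, and miR-363 could pass the level limit only through involution. The sizes set the miRNAs apart more than the calls did. The median ratio of the 752 families with tags in both libraries was 1.51, below the 1.94 of miR-25 and near the 1.49 of miR-92a. In the order of ratios from the top, counting families without lactation tags as highest, miR-19b was at place 53 of 772, miR-19a at 64, miR-363 at 107, miR-25 at 322 and miR-92a at 399.

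Scaling multiplied all ratios by the same factor, so their order could not change. Median-of-ratios factors shifted every log2 ratio by -0.60 and TMM factors by -0.66, after which 191 families were called higher and 122 lower, or 184 and 135, of 735. Under these factors the ratio of miR-19b was 11.4 and 10.9, of miR-19a 8.30 and 7.93, of miR-363 4.94 and 4.72, and of miR-25 1.28 and 1.23. Only miR-92a, of the 5, lay on the other side of 1. The same 3 miRNAs were the ones called higher.

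The contrast between the seeds needs no scaling, since both were counted in the same libraries. For each miR-19 tag there were 3.26 tags of the miR-92/25 seed in involution and 30.5 in lactation. As a share of the tags of all 5, miR-19 made up 23.5% in involution (22.9 to 24.1%) and 3.17% in lactation (2.94 to 3.42%). The ratio of the ratios was 9.36 (8.61 to 10.2), with an exact conditional interval. Of the 10 pairs of miRNAs, all had a ratio of ratios whose interval left out 1. These intervals cover counting error only, and pairs of other families were not compared in this way. Of the 772 families, 61.8% had an involution interval wholly above the lactation interval and 18.1% wholly below. The closest pair was miR-92a against miR-25, at 0.77 (0.73 to 0.80), followed by miR-19a against miR-19b at 0.73 (0.60 to 0.88). Next came a pair across the seeds, miR-19a against miR-363, at 1.68 (1.23 to 2.28), then miR-19b against miR-363 at 2.31 (1.74 to 3.05). Inside the miR-92/25 seed, miR-25 against miR-363 was at 0.26 (0.20 to 0.34) and miR-92a against miR-363 at 0.20 (0.15 to 0.26).

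Within each seed the shares of the 2 main miRNAs differed less, while miR-363 lay nearer to the miR-19 pair in ratio. Of the miR-19 tags, miR-19b took 78.3% in involution (77.1 to 79.5%) and 72.4% in lactation (68.9 to 75.7%). On the miR-92/25 side the 2 main miRNAs were level in involution, with 49.1% for miR-92a and 49.2% for miR-25. In lactation miR-92a led, with 56.4% (55.7 to 57.1%) against 43.2% for miR-25 (42.5 to 43.9%). The share of miR-363 was 1.70% in involution (1.498 to 1.93%) and 0.389% in lactation (0.309 to 0.484%).

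A single base separates miR-19a from miR-19b, so the letter at base 11 was counted among tags that otherwise matched the first 18 bases. In involution 3429 tags had C and 941 had T, and in lactation 488 had C and 186 had T. The letters A and G were found in 0 such tags of either library, where a count of 0 allows up to 0.406 CPM in involution and 0.166 in lactation. Misread copies of miR-19b with A or G were thus not detected beside the miR-19a tags. A copy of miR-19b with C misread as T would be counted as miR-19a, and the letters A and G cannot show such copies.

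The same seeds occur in further tags. Counting every tag with GTGCAAA at bases 2 to 8, whatever followed, gave 605 CPM in involution and 43.8 in lactation. The miR-19 pair made up 97.8% and 85.1% of these. Every tag with ATTGCAC gave 2041 and 1172 CPM, of which miR-92a, miR-25 and miR-363 made up 93.5% and 95.9%. The second group also held miR-32 and miR-92b, whose most abundant tags had 33.3% and 63.6% GC. These tags are shown to compare their letters after the seed.
miR-32: tATTGCACattactaagttgc
miR-92b: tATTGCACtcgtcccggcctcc

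The level of miR-32 was 82.3 CPM in involution (75.9 to 89.1) and 17.9 in lactation (16.0 to 19.98), a ratio of 4.60 (4.01 to 5.28). That of miR-92b was 11.8 and 7.10 CPM, a ratio of 1.66 (1.25 to 2.20). A shared seed thus went with ratios that ran over a range, and miR-92b lay close to miR-92a. No tag was recognised as miR-367, another miRNA with this seed, in either library.

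Ratios also differed by base composition. Both miR-19 miRNAs belong to the 110 families under 40% GC, of which 62 were called higher, or 56.4%, with a median ratio of 2.81. The most abundant tags of miR-92a, miR-25 and miR-363 lie among the 272 families of 50 to under 60% GC, of which 89 were called higher, or 32.7%, with a median ratio of 1.25. Over all 752 families the relation was not a line, with r = -0.05 across tag families, which share the libraries and their depth. Families of 60% GC or more had a median ratio of 1.79. With a linear trend with GC content removed, the miR-19 seed ratio was 15.1, the miR-92/25 seed ratio 1.70 and the ratio of these ratios 8.86. A line does not capture the relation above, so beyond this the part of base composition in the ratios of the 5 miRNAs was not tested.

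**Figure D2:**
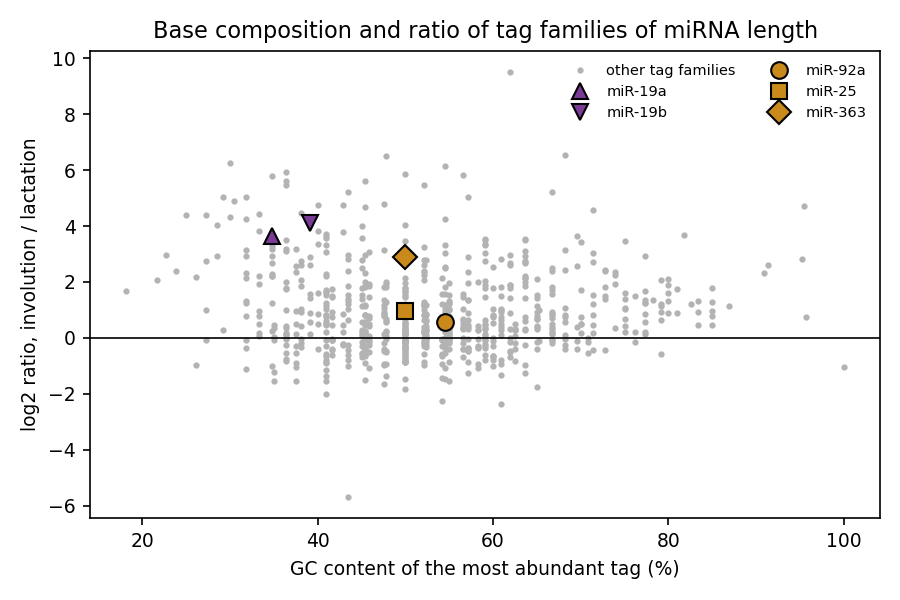
Each point is a tag family, with the GC content of its most abundant tag in percent on the horizontal axis and its log2 ratio of involution to lactation on the vertical axis. The miR-19 symbols lie at 34.8% and 39.1% GC with log2 ratios of 3.65 and 4.11, and miR-92a at 54.5% with 0.57, which turns below 0 with median-of-ratios or TMM factors.

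RefSeq lists genes for all 5 miRNAs in its annotation of the goat assembly ARS1.2. The genes for miR-17, miR-18a, miR-19a, miR-20a, miR-19b and miR-92a are neighbours in this order. Those for miR-106b, miR-93 and miR-25 form a second cluster. Those named for miR-106a, miR-18b, miR-20b, miR-92b and miR-363 have no chromosome named, and whether they lie on the same sequence was not read. The genes for miR-106a, miR-18b, miR-20b and miR-363 are treated here as the miR-106a-363 cluster. Whether the gene named for miR-92b makes the miR-92b tags above could not be read without its sequence. Among the neighbours, miR-17, miR-20a, miR-20b, miR-93, miR-106a and miR-106b have a seed of their own, AAAGTGC, and repress the mRNA of the cell cycle inhibitor CDKN1A in human cells.

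Within the first cluster the 2 miR-19 miRNAs stood highest and miR-92a lowest. For miR-17 the level was 309 CPM in involution and 82.0 in lactation, a ratio of 3.77 (3.53 to 4.03). For miR-20a it was 579 and 196 CPM, a ratio of 2.95 (2.82 to 3.09). The tags of miR-18a and miR-18b were counted together, since they could not be told apart by 18 bases, and stood at 49.0 and 6.32 CPM, a ratio of 7.75 (6.26 to 9.66). The ratios named for the 6 positions thus ran from 1.49 for miR-92a to 17.3 for its neighbour miR-19b. Tags of miR-19b, miR-92a and miR-18 may also come from the miR-106a-363 cluster, so these are not all ratios of single positions.

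In the second cluster miR-25 lay between its neighbours. The level of miR-106b was 484 CPM in involution and 149 in lactation, a ratio of 3.24 (3.08 to 3.41). That of miR-93 was 717 and 589 CPM, a ratio of 1.22 (1.18 to 1.26), which turned below 1 under both sets of scaling factors. In the miR-106a-363 cluster miR-363 was close to miR-106a, at 18.3 CPM in involution and 2.61 in lactation, a ratio of 7.01 (5.00 to 9.99). The ratio of miR-20b was 2.23 (1.68 to 2.97), on 97 and 106 tags.

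**Figure D3:**
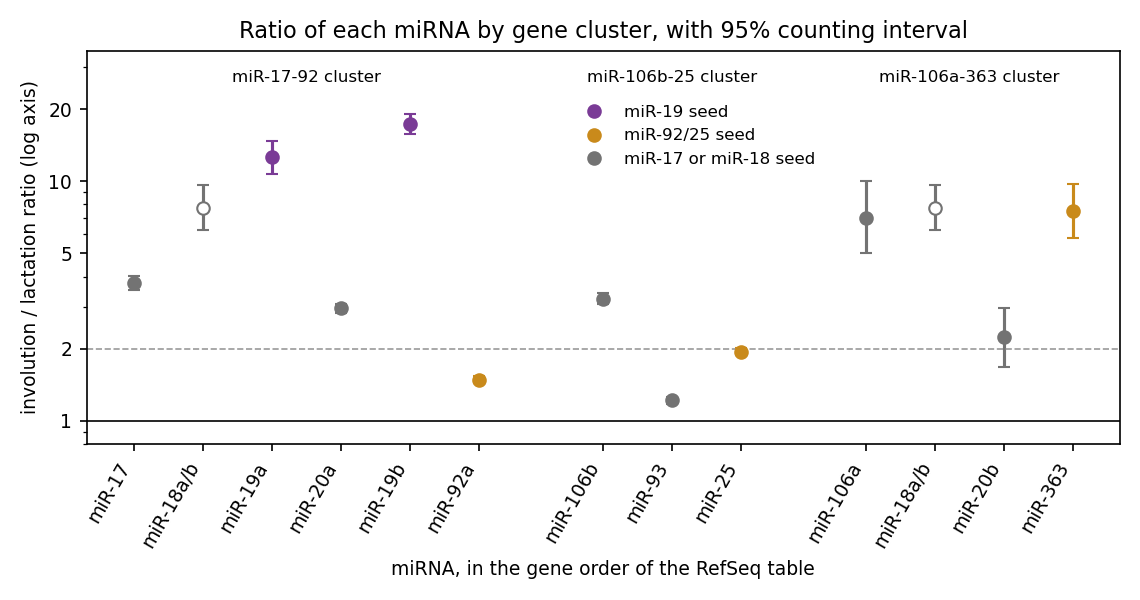
Ratio of involution to lactation for each miRNA on a log axis, with 95% counting intervals, ordered as the genes lie in the RefSeq table. Open points are the joint count of miR-18a and miR-18b, drawn in both clusters that hold such a gene, the solid line marks a ratio of 1 and the dashed line 2. The miR-19 points, at 12.6 and 17.3, lie above their cluster neighbours, and miR-92a lies lowest of its cluster at 1.49, which turns below 1 with median-of-ratios or TMM factors.

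The opposite arms of the precursors were rare, and they did not share the ratios of the 3′ arms. For miR-25-5p there were 58 tags in involution and 189 in lactation, or 0.813% (0.618 to 1.05%) and 2.08% (1.80 to 2.40%) of the tags of both arms. For the 5′ arm of miR-19b the tags numbered 9 and 14, or 0.260% (0.119 to 0.492%) and 2.79% (1.53 to 4.63%). Its level of 1.22 CPM in involution and 0.776 in lactation gives a ratio of 1.57 (0.60 to 3.89), against 17.3 for the mature miR-19b arm. For miR-92a-1-5p, the 5′ arm of the miR-92a copy in the miR-17-92 cluster, the tags numbered 3 and 28, or 0.0424% (0.00875 to 0.124%) and 0.241% (0.160 to 0.348%) of these and the miR-92a tags of both copies. No tag of the opposite arms of miR-19a or miR-363 was recognised.

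The ends of the tags were read next, since an end variant keeps the miRNA but changes its length or its seed. At the 3′ end, tags shorter than the most abundant form made up 49.9% of miR-19b in involution (48.2 to 51.5%) and 44.3% in lactation (39.8 to 48.8%). For miR-19a they made up 42.4% (39.3 to 45.6%) and 34.9% (28.1 to 42.3%). For miR-25 the shares were 10.4% and 10.8%, and for miR-92a 1.30% and 1.02%. In these 4 miRNAs the intervals of the 2 libraries overlapped, and miR-92a stood out by running longer instead. Tags longer than its most abundant form made up 28.1% in involution (27.1 to 29.2%) and 32.6% in lactation (31.8 to 33.5%), and the first extra letter was A in 81.5% and 83.8% of them.

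The end of miR-363 differed most between the libraries. Shorter tags made up 6.12% of its tags in involution (3.47 to 9.90%) and 68.8% in lactation (57.4 to 78.7%). The 22 nt form and the form 1 base shorter are shown because the ratio of miR-363 turns on which of them is counted. With them is the most abundant form that lacks the first base, which also ends 1 base beyond the 22 nt form.
miR-363, 22 nt: aATTGCACggtatccatctgcg
miR-363, 21 nt: aATTGCACggtatccatctgc
miR-363 without its first base: aTTGCACGgtatccatctgcgt

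The 22 nt form had 106 tags in involution and 11 in lactation, a ratio of 23.5 (12.6 to 48.6). The 21 nt form had 10 tags in involution and 31 in lactation, where it was the commonest form, and its ratio of 0.79 (0.34 to 1.65) had an interval across 1. The form shown without its first base had 37 and 2 tags and a ratio of 45.2 (11.7 to 387). Another form without the first base, ending 1 base before the 22 nt form, had 2 and 9 tags and a ratio of 0.54 (0.06 to 2.62). By position of the end, whatever the start, tags ending at the 22 nt form's end had a ratio of 19.8 (11.8 to 35.7), those 1 base longer 25.9 (12.6 to 62.0) and those 1 base shorter 0.70 (0.36 to 1.28). Thus the higher level of miR-363 in involution lay in the full-length and longer tags. The last letter went with this: tags ending in C were 5.71% of miR-363 in involution (3.16 to 9.40%) and 52.5% in lactation (41.0 to 63.8%).

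A second split by end lay inside miR-19. Its 21 nt form, 2 bases shorter than the most abundant tag, is shown beside that form, since the ratio differed between them.
miR-19b, 23 nt: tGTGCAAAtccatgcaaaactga
miR-19b, 21 nt: tGTGCAAAtccatgcaaaact

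The 23 nt form of miR-19b had 1527 tags in involution and 223 in lactation, a ratio of 16.7 (14.5 to 19.3). The 21 nt form had 258 tags in involution and 13 in lactation, a ratio of 48.5 (27.8 to 92.2). In miR-19a the 21 nt form had 62 and 2 tags, so its ratio of 75.7 (20.1 to 639) is uncertain, while its 23 nt form had a ratio of 12.5 (10.0 to 15.8). A last T in place of the last A went the other way. Of miR-19a, tags of 23 nt ending in T had 38 and 24 tags and a ratio of 3.87 (2.26 to 6.74), and of miR-19b 129 and 33 tags and a ratio of 9.54 (6.47 to 14.4). Whether an added T replaces the A cannot be read without the goat precursor sequence, which was not used here.

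The 22 nt form of miR-19b, 1 base short, had 1370 and 196 tags and a ratio of 17.1 (14.7 to 19.9), whose interval overlapped that of the 23 nt form. By position of the end, miR-19a tags 1 base short had a ratio of 12.5 (9.53 to 16.7), against 10.9 (8.95 to 13.5) at its most abundant end. Of the cluster neighbours of miR-19, miR-17, miR-20a and the joint miR-18 count already differed at 1 base short, while miR-92a did not. For miR-92a the ratio was 1.44 (1.04 to 1.98) at 1 base short and 1.58 (1.53 to 1.64) at its most abundant end. Tags of miR-17 that were 1 base short had a ratio of 22.9 (14.6 to 37.8), against 3.37 (3.13 to 3.62) at its most abundant end. For miR-20a these values were 22.1 (15.8 to 31.8) and 2.68 (2.55 to 2.82). For miR-18a and miR-18b together they were 34.2 (15.1 to 95.8) and 3.87 (2.97 to 5.04). Both neighbours of miR-25 differed in the same direction at 1 base short, miR-106b with 9.95 (8.74 to 11.4) and 2.39 (2.22 to 2.58) and miR-93 with 1.69 (1.35 to 2.10) and 1.25 (1.21 to 1.30). For miR-25 itself the values were 1.88 (1.69 to 2.10) and 1.96 (1.89 to 2.03), with overlapping intervals. At 2 and 3 bases short the direction in these neighbours was mixed. The ratios there were 1.70 (1.52 to 1.90) and 3.96 (2.89 to 5.46) for miR-106b, and 1.20 (0.95 to 1.52) and 0.59 (0.46 to 0.76) for miR-93.

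**Figure D4:**
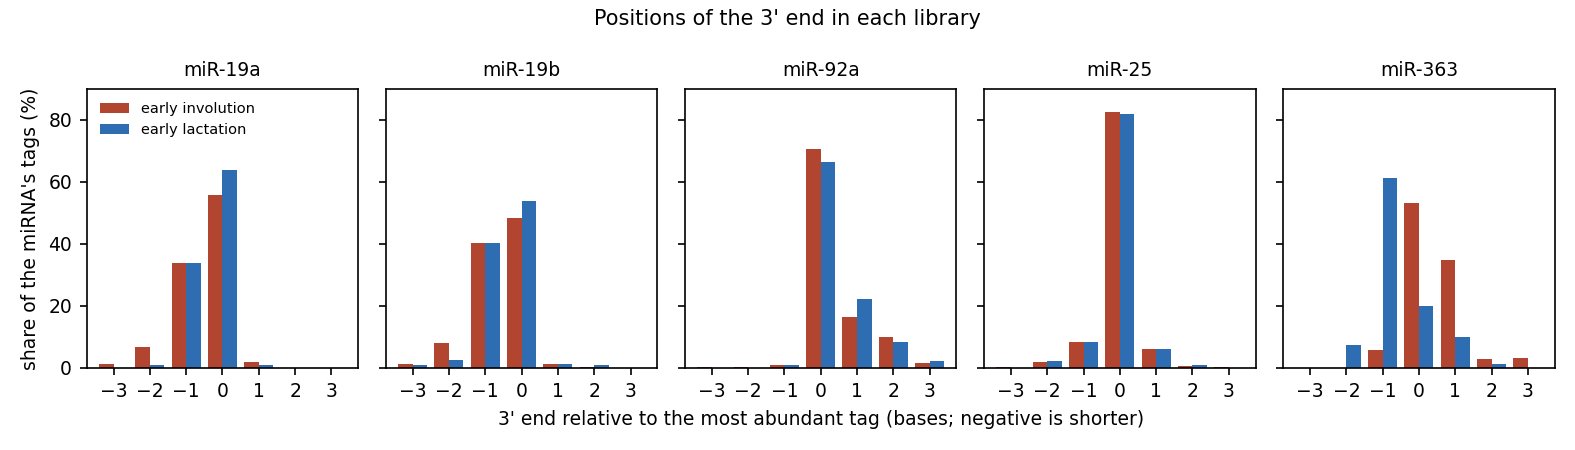
Share of each miRNA's tags, in percent, by the position of the 3′ end relative to its most abundant tag, from 3 bases shorter to 3 bases longer, with early involution on the left of each pair of bars and early lactation on the right. In miR-363 the tags 1 base short make up 5.71% in involution and 61.2% in lactation, while in miR-25 the bars of both libraries nearly coincide.

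The 5′ end sets the seed, and among the tags counted here it was nearly fixed in 4 of the 5. Tags with extra bases before the first base were not counted here and are given further below. Tags lacking 1 or 2 bases made up 2.39% of miR-92a in involution (2.05 to 2.77%) and 2.14% in lactation (1.88 to 2.42%). They were 0.735% and 0.405% of miR-25 and 0.896% and 0.410% of miR-19b, with overlapping intervals. In miR-19a 16 of 957 tags in involution began late and 0 of 186 in lactation, which allows a share of up to 1.96%. miR-363 was the exception, with 32.7% in involution (26.8 to 38.9%) and 23.8% in lactation (14.9 to 34.6%), again with overlapping intervals. Nearly all of these lacked 1 base, 79 of 80 tags in involution and 19 of 19 in lactation, which makes the seed TTGCACG in place of ATTGCAC.

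The tag families nearest to the miR-19 seed sum in log2 ratio, which was 3.999, were named by a rule that looks at 2 libraries only. Among families with at least 100 CPM in a library they were families A to C, shown by their most abundant tags because A and C share a seed, AGCAGCA, that differs from that of miR-19. Family B carries the seed of miR-375, an epithelial and endocrine miRNA.
Family A: tAGCAGCAcagaaatgttggt
Family B: tTTGTTCGttcggctcgcgtga
Family C: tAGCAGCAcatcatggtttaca
Their log2 ratios were 3.78, 4.24 and 3.71. For the miR-92/25 sum, at 0.77, the nearest were families D to F, at log2 ratios of 0.77, 0.77 and 0.75, each with a seed of its own.
Family D: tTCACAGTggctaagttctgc
Family E: tAGAATTTggtgtaattggga
Family F: tCGGGGAGaaccgcaggaacgc

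Marker miRNAs of the gland and of other cells differed between the libraries in both directions, and 40.7% of all tag families were called higher, so a level over 2-fold higher was common. Erythroid miRNAs, recognised by seed, summed to 3255 CPM in involution and 964 in lactation, with 2 of 3 seeds over 2-fold higher: miR-451 at 4.63 times and miR-144 at 22.4 times the lactation level, while miR-486 was at 0.84 times. Leukocyte miRNAs summed to 1314 and 1396 CPM, with miR-223, miR-150 and miR-142-3p over 2-fold higher and miR-155 at 0.58 times. The smooth muscle and stromal seeds summed to 334341 and 321228 CPM, a sum carried by miR-143, with miR-145 at 9.30 times, miR-214 at 5.44 times and miR-199a-3p at 1.36 times the lactation level. Skeletal muscle seeds summed to 1583 and 1939 CPM, carried by the joint seed of miR-1 and miR-206, with miR-133a at 7.71 times. Of the epithelial and milk seeds, miR-375 was at 18.2 times, miR-205 at 5.66 times and the joint seed of miR-141 and miR-200a at 2.27 times the lactation level, while that of miR-200b, miR-200c and miR-429 was at 0.82 times and that of miR-148 and miR-152, which carried the sum, at 0.45 times. The endothelial seed of miR-126 stood at 5004 in involution and 6953 CPM in lactation. The liver seed of miR-122 stood at 18.96 in involution and 10.3 CPM in lactation. No marker seed was at 0 in either library. Since miR-92a and miR-25 are also known from human red blood cells, these values stand beside theirs, and their part in the ratios was not tested.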

How the data were processed

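The authors deposited raw counts, the number of reads of each distinct clean tag in 1 pooled library per stage. Per the labels and the description deposited by the authors, low-quality reads, adaptors, tags under 18 nt and polyA tags were removed and identical reads collapsed. No tool version is named. Shares of removed reads were read from the filtering summaries deposited with the tags. The deposited tag lengths were used as given.

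No table of goat miRNA sequences was used here, although the design had named RefSeq mature sequences. Each miRNA was recognised by its first base, its seed and 2 to 4 following bases, known for conserved mammalian miRNAs, and its most abundant deposited tag of 20 to 24 nt served as its sequence. The background was built in the same way from the tags: 18-base starts in order of level, leaving out starts shifted by up to 3 bases from a more abundant one and starts with up to 2 mismatches to one at least 20 times as abundant. Families held 86.9% of tags in involution and 88.9% in lactation, and shared tags set aside were 0.104% and 0.0545%.

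Counts were divided by all clean tags and given per 1000000 (CPM). 0 columns of other samples were found. Intervals are exact Poisson for levels, Clopper-Pearson for shares and conditional Clopper-Pearson for ratios. A call needed a ratio of at least 2 or the inverse, an interval beyond 1 and 10 CPM. The procedure was tested on simulated counts. The named genes were the members, other miRNAs of either seed, cluster neighbours, opposite arms, marker seeds and the 3 families nearest in log2 ratio. The members and lists were chosen with earlier results of these data known. RefSeq names were looked up for 16 miRNA genes, of which 14 matched. Calculations used Python 3.11.15, numpy 2.4.6, scipy 1.17.1 and edgeR 4.0.16 for TMM.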

Additional observations from a re-analysis of the deposited data

Results flagged for a closer look

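Tags with 1 or 2 extra bases before the first base have a shifted seed and fall outside the rule used for the levels. For miR-19b there were 92 such tags in involution, or 12.5 CPM, and 0 in lactation, where a count of 0 allows 0.166 CPM, so they were at least 74.9-fold higher in involution against that floor, and the conditional interval of the ratio has a lower limit of 59.7. Over the 5 miRNAs these tags numbered 210 in involution and 19 in lactation, or 1.10% (0.961 to 1.26%) and 0.0894% (0.0538 to 0.140%) of the tags counted with them. In miR-19a, which had the highest share in both libraries, the shares overlapped, at 4.78% (3.54 to 6.28%) in involution and 3.63% (1.47 to 7.33%) in lactation. The share of reads removed as 5′ adaptor contaminants, 14.0% in involution and 0.0505% in lactation, was also higher in involution, and its part was not tested.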

How the results depend on the processing

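With 1 library per stage, depth limits the counting error alone, and the spread between goats is unknown. Lactation values of miR-19a and miR-363 rest on 186 and 80 tags. The miR-19 seed ratio of 16.0 became 10.6 with median-of-ratios factors, 10.1 with TMM factors and 14.1 with tags at the most abundant 3′ end only. The miR-92/25 ratio of 1.71 became 1.13, 1.08 and 1.78 in the same settings, 1.75 when scaled to the tags of the families, and 1.80 with identical tags only. The seed contrast of 9.36 became 8.60 with identical tags and 7.93 with tags at the most abundant end. The 314 families called higher became 191 with median-of-ratios factors, 184 with TMM, 176 with identical tags, 1160 with no filter on level and 87 at 100 CPM. In these settings the cause was not tested beyond the smaller or larger number of tags or families kept. Among the 5, miR-25 passed the limit with identical tags (2.01), with no mismatch over the whole overlap (2.003) and at a fold limit of 1.5. In these 3 settings 42.4%, 40.3% and 51.4% of all families were called higher. At 100 CPM miR-363 was not counted. With identical tags its ratio was 23.5. The settings on 3′ ends, extra 5′ bases and unmerged starts were chosen after seeing the data. Both seed ratios and the contrast stayed above 1 in all settings run, and no library could be left out. No paired analysis was possible because each stage has 1 library.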

Other observations

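Tags with 1 mismatch at bases 9 to 18 were counted for each miRNA. They made up 1.07% of the tags of miR-19b in involution (0.753 to 1.47%) and 3.37% in lactation (1.97 to 5.34%). C-to-T changes made up 13 of 37 such tags in involution and 13 of 17 in lactation. For miR-92a the share was 1.13% in both libraries, and for miR-25 it was 1.20% in involution and 1.06% in lactation.

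In miR-32 the 3′ end differed between the stages. Tags longer than its most abundant form made up 45.1% in involution (41.1 to 49.1%) and 26.3% in lactation (21.6 to 31.5%). Its 22 nt form had a ratio of 7.06 (5.49 to 9.16) and its 21 nt form 3.31 (2.75 to 3.98).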
